A study of Mus musculus with 55 samples.

Results

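Cerebella of mice of a line with a human PON1 transgene, the form with glutamine at the variable position (PON1.Q192, genotype tgHuPON1Q192), were compared with those of wild-type mice (WT, genotype Pon1+/+), both after vehicle alone. The comparison was chosen by sample title and held 10 of the 55 arrays of the series, 4 from Q192 and 6 from WT, with 14950 genes tested of 19938 genes that had 1 symbol. The strain is given as C57Bl/6 for both genotypes, with no substrain. Every pup was taken at postnatal day 22 after daily subcutaneous dimethyl sulfoxide from day 4 to day 21, the solvent in which the treated pups received chlorpyrifos oxon (CPO) at 0.35 or 0.5 mg/kg/day. Arrays of Q192 and WT pups given CPO (5 and 5 of Q192, 6 and 3 of WT), and the vehicle arrays labelled R192 (arginine at the same position, 4) and Pon1 knockout (KO, 4), served for direct tests of the genes found. The labels used here give neither the promoter that drives the transgene nor the state of the mouse Pon1 alleles in the Q192 animals. They also do not say whether each array is a separate animal, so the p-values measure the spread between these arrays.

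Paraoxonase 1 is an esterase made mainly by the liver and carried in blood on high-density lipoprotein. It hydrolyses lipid lactones and the oxon metabolites of organophosphate insecticides, among them CPO, which otherwise inhibit acetylcholinesterase. The residue at the variable position changes how fast the human enzyme turns over some of these substrates. Its relatives paraoxonase 2 and paraoxonase 3 lie next to it in the genome as 1 gene cluster. The comparison asks how the cerebella of the Q192 line and of WT differed in pups that received vehicle and no CPO.

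Few genes differed between the vehicle-treated Q192 and WT cerebella. Of the 14950 genes, 21 passed an adjusted p of 0.05 (0.14% of the genes tested), 10 higher in Q192 (0.0669%) and 11 lower (0.0736%). Besides Pon1 itself, the genes with the largest differences were Gdpd3, which was lower by 2.12 on the log2 scale, the long non-coding RNA G530011O06Rik, 3.61-fold higher, and Mrpl20, 2.39-fold lower. The median size of the 21 differences was 0.77 on the log2 scale, and 7 were larger than 1. In 20 of the 21 genes the 4 Q192 arrays and the 6 WT arrays did not overlap, against 0.843% of all genes tested (126 genes). The exception was Rps15a. The 21 were chosen on these same arrays, so their separation is not added support. Without adjustment, 348 genes (2.33%) had a p under 0.05, and the median difference over all genes was -0.01.

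**Figure D1:**
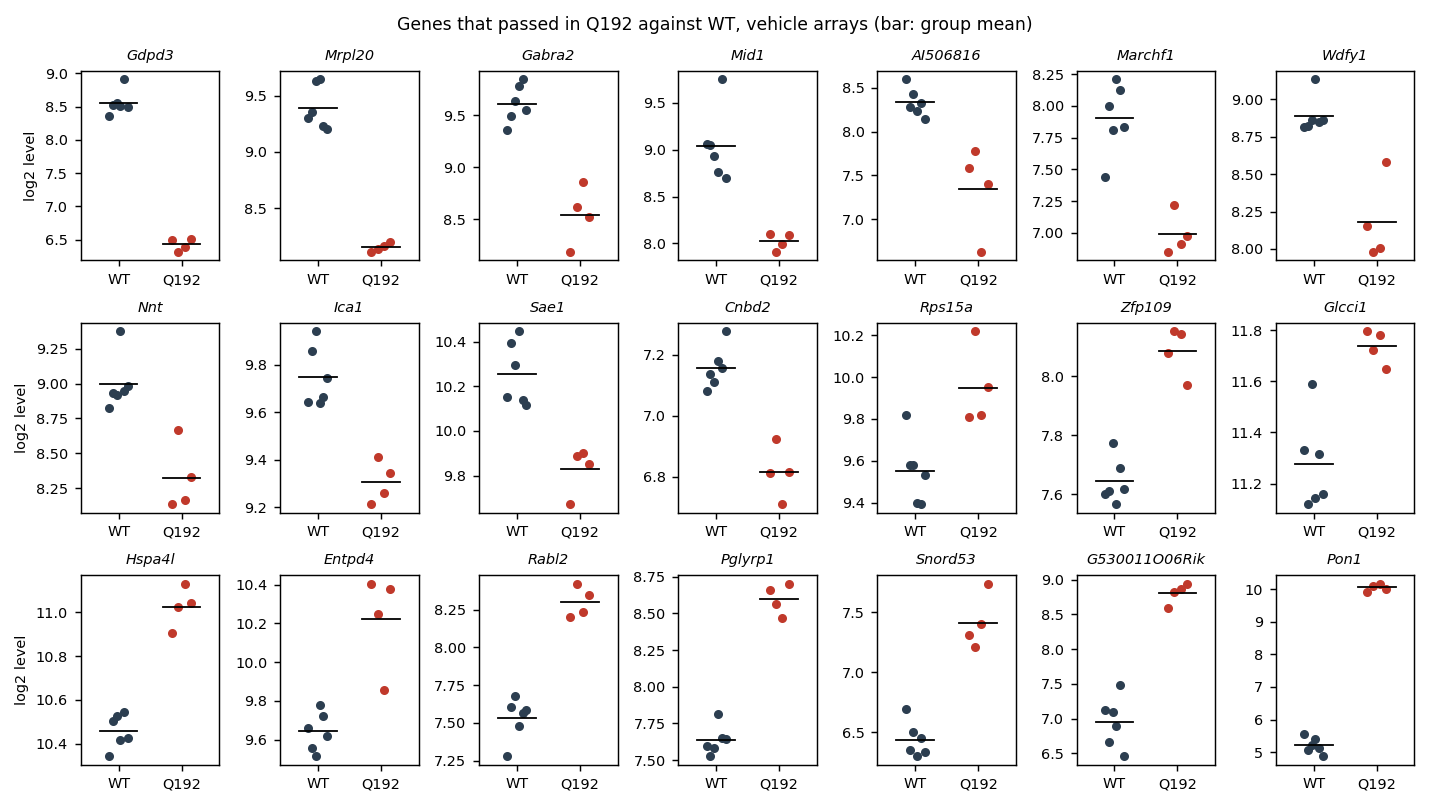
Log2 expression level (vertical axis) of the 21 genes that passed in Q192 against WT, 1 panel per gene, 1 point per vehicle array (6 WT, 4 Q192), with a bar at each group mean. The groups separate in every panel except that of Rps15a, where the lowest Q192 array (9.81) lies level with the highest WT array (9.82).

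The 10 arrays were made on 2 dates, 2 of Q192 and 3 of WT on the first and 2 and 3 on the second, and the date was a term of the fit. Q192 replicates 1 and 2 share a number in the labels, as do WT replicates 4 to 6, and what the number stands for is not stated. Within each date the difference kept its sign in 21 of the 21 genes, which were chosen on these same arrays. In 20 of them the groups do not overlap, so any split of the arrays must keep the sign. Fewer passed with so few arrays, 4 on the first date (Pon1, Gdpd3, Gabra2 and Wdfy1) and 7 on the second (Pon1, Gdpd3, Mrpl20, Hspa4l, Pglyrp1, Snord53 and G530011O06Rik). Leaving out any 1 of the 10 arrays left between 16 and 21 genes, and 12 of the 21 passed each time.

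Pon1 was the gene that separated the genotypes most widely. The Q192 arrays read 9.93, 10.12, 10.17 and 10.01 on the log2 scale, and the WT arrays ran from 4.88 through a median of 5.17 to 5.55. All 6 WT values lie under the level below which genes were filtered out (6.44), so Pon1 was tested only through the groups where it is high, and no fold is given. The fitted difference was +4.85 (SE 0.125, adjusted p = 1.54e-33). The probes of the array were designed on mouse sequence and their positions are not given in the sources used here, so a human transgene transcript and a transcript of the mouse allele cannot be told apart. The vehicle arrays labelled KO read as high as those of Q192, with a direct difference of -0.10 (95% interval -0.38 to 0.17, adjusted p = 0.71), so that the value does not separate the transgenic arrays from those labelled KO. It separates each of them from WT.

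The other paraoxonases stood lower in Q192 and did not pass. Pon2, an intracellular paraoxonase expressed in brain, read 9.40, 9.59, 9.45 and 9.54 in Q192 and from 9.70 to 10.23 in WT, with a median of 9.82. Its difference was -0.36 (SE 0.090, adjusted p = 0.13). Pon3 read 6.65, 6.90, 6.83 and 6.74 in Q192 and from 7.03 to 7.66 in WT, with a median of 7.21, a difference of -0.48 (SE 0.148, adjusted p = 0.64). For both genes every Q192 array lay under every WT array. Acetylcholinesterase, the target that CPO inhibits, lay at 8.95 ± 0.24 (SD, n = 4) in Q192 and 9.01 ± 0.27 (SD, n = 6) in WT. Butyrylcholinesterase lay at 7.60 ± 0.19 and 7.59 ± 0.31 in the same arrays. Neither passed, and the ranges of both genes overlapped.

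The regions just before the start sites of mouse Pon1 and of the 3 protein-coding genes with the largest falls are shown beside each other. They were chosen as the protein-coding genes that fell most, with the mouse counterpart of the transgene. The transgene is human PON1, and the labels do not give the promoter that drives it. The sequences are mouse reference sequence from RefSeq (GRCm38.p6), 250 bases each, and 15 of the 21 genes had an entry. Capitals mark matches, on either strand, to TATAAA (the TATA box), to CCAAT (the box of the same name) and to GGGCGG (the GC box). The motifs share no overlapping match in these windows.
Pon1 promoter, chr6:5193947-5194196 (- strand): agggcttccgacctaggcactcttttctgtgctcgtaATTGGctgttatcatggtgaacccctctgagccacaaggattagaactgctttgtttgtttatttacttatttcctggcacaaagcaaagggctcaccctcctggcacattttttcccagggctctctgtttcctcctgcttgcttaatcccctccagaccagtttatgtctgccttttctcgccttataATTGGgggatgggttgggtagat
Gdpd3 promoter, chr7:126766164-126766413 (+ strand): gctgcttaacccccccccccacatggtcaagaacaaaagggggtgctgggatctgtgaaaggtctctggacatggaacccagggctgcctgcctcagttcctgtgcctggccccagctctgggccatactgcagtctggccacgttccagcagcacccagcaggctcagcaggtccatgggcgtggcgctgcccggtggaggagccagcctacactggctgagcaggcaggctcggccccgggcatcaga
Mrpl20 promoter, chr4:155802628-155802877 (+ strand): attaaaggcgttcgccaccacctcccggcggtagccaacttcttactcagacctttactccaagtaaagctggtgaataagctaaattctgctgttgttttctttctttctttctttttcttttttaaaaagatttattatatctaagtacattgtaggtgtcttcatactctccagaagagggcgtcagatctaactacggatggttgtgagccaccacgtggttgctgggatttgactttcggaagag
Gabra2 promoter, chr5:71095850-71096099 (- strand): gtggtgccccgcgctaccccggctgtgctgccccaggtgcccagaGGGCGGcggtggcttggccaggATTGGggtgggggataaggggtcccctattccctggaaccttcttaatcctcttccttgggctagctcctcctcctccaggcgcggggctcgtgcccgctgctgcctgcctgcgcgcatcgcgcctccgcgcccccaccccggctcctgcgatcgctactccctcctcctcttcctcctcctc
The Pon1 window held 2 CCAAT matches and the Gabra2 window 1 CCAAT and 1 GGGCGG match. In the Gdpd3 and Mrpl20 windows none of the 3 motifs was found. Over all 32851 promoter windows of that length, 33.9% held CCAAT, 32.7% GGGCGG and 12.4% TATAAA. The windows held 3 (Pon1), 6 (Gdpd3), 8 (Mrpl20) and 18 (Gabra2) CpG dinucleotides. These are letters of the reference, not sequence read from the mice studied.

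Besides Pon1, the genes of chromosomes 6 and 7 made up 7 of the 21. Chromosome 7 held 5 of them among 1193 genes tested (0.419%) and chromosome 6 held 3 with Pon1 among 739 (0.406%), beside 0.14% of all genes. Genes with an unadjusted p under 0.05 made up 5.36% of chromosome 7 and 4.06% of chromosome 6, beside 2.33% overall. Genes whose groups did not overlap made up 2.26% and 2.44% of these chromosomes, beside 0.843% overall. On the X chromosome 2 of 473 genes passed (0.423%), and the share at an unadjusted p under 0.05 was 2.33%, the same as over all genes.

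Gdpd3, a lysophospholipase D of the glycerophosphodiesterase family, fell most on chromosome 7. Its Q192 arrays read 6.49, 6.32, 6.39 and 6.51, whereas WT ran from 8.35 through a median of 8.52 to 8.91. The difference was -2.12 (SE 0.134, adjusted p = 9.16e-17), and all 4 Q192 arrays lay far under the lowest WT array. The Q192 mean (6.43) is under the filter level (6.44), so Gdpd3 was tested only through the groups where it is high, and no fold is given. Pglyrp1, a peptidoglycan-binding protein of innate immunity, rose by 0.97 (SE 0.120, adjusted p = 7.41e-07). Its levels were 8.66, 8.56, 8.47 and 8.70 in Q192 and 7.53 to 7.81 in WT. Zfp109, a zinc-finger protein, rose by 0.44 (adjusted p = 0.0069), from 7.64 ± 0.08 (SD, n = 6) in WT to 8.09 ± 0.08 (SD, n = 4), and had an adjusted p of 0.053 without Q192 replicate 3.

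Sae1 and Rps15a completed the chromosome 7 genes. Sae1, a subunit of the enzyme that activates the small modifier SUMO, lay at 9.83 ± 0.11 (SD, n = 4) in Q192 and 10.26 ± 0.14 (SD, n = 6) in WT, a difference of -0.43 (SE 0.093, adjusted p = 0.025). Its adjusted p was above 0.05 without any 1 of Q192 replicates 1, 3 and 4 or WT replicates 2, 3 and 4, at most 0.31. Rps15a, a protein of the small ribosomal subunit, read 9.81, 10.22, 9.82 and 9.95 in Q192 and 9.39 to 9.82 in WT, a difference of +0.38 (adjusted p = 0.0090). It had an adjusted p of 0.18 without Q192 replicate 2, the highest array, and 0.057 without replicate 4. Along the 1193 tested genes of chromosome 7, Sae1, Pglyrp1 and Zfp109 stood at places 106, 129 and 185, and Rps15a and Gdpd3 at 867 and 944. The 5 genes thus fell into 2 separate stretches of the order.

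On chromosome 6 the genes that passed besides Pon1 lay within 30 places of it in the order of tested genes. Of the 41 tested genes within 30 places of Pon1 (11 on the side toward the start of the chromosome, 30 on the other), 2 passed, beside 0.14% of all genes. These were Glcci1, 16 places away, a gene known for induction by glucocorticoids, and Ica1 beside it at 17, a membrane-bending protein of secretory vesicles. No tested gene between Pon1 and Glcci1 passed. Among the other 697 tested genes of chromosome 6 no gene passed in limma, and 24 (3.44%) had an unadjusted p under 0.05. Near Pon1 that share was 5 of 41 (12.2%), and 5 genes had groups that did not overlap, Pon3, Pon2, Mios, Glcci1 and Ica1. Groups without overlap numbered 12 among the other 697 genes of the chromosome and 126 among all 14950 (0.843%). The median size of the difference was 0.088 among these 41 genes, 0.050 on the rest of chromosome 6 and 0.047 over all genes.

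Glcci1 read 11.79, 11.72, 11.78 and 11.65 in Q192 and from 11.12 to 11.59 in WT, a difference of +0.45 (SE 0.093, adjusted p = 0.012). Every Q192 array lay above the highest WT array, though by little. Its adjusted p was 0.068 without Q192 replicate 1, 0.094 without Q192 replicate 3 and 0.074 without WT replicate 2. Ica1 read 9.21, 9.41, 9.26 and 9.35 in Q192 and from 9.64 to 9.94 in WT, a difference of -0.44 (SE 0.064, adjusted p = 2.23e-05). Fitted on its own 10 arrays, the vehicle comparison gave Ica1 an adjusted p of 0.067. Mios, a component of the complex that signals amino acid supply to mTORC1, differed by -0.30 and did not pass (adjusted p = 0.52).

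**Figure D2:**
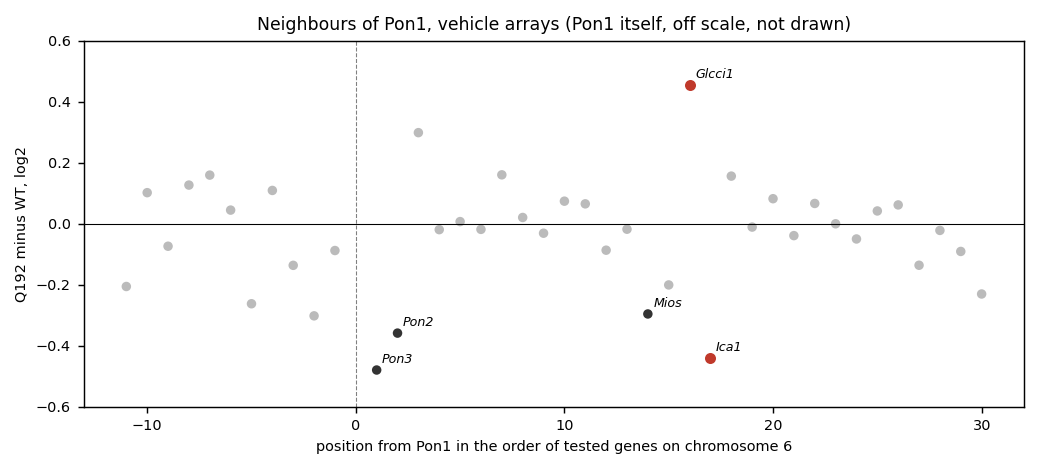
Fitted log2 difference, Q192 minus WT in vehicle arrays (vertical axis), for the 41 tested genes within 30 places of Pon1 on chromosome 6, against their place from Pon1 in gene order (horizontal axis). Glcci1 (+0.45) and Ica1 (-0.44) are the 2 genes that passed, and most others lie near 0.

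In direct tests among vehicle arrays, the genes of chromosomes 6 and 7 that separated Q192 from WT did not pass between Q192 and either R192 or arrays labelled KO. These tests use the same Q192 arrays as the comparison with WT. The Q192 minus R192 difference of Gdpd3 was +0.16 (95% interval -0.14 to 0.45), that of Pglyrp1 +0.10 (-0.16 to 0.36) and that of Ica1 -0.06 (-0.20 to 0.08). Against arrays labelled KO they were +0.16 (-0.14 to 0.45), -0.01 (-0.27 to 0.25) and -0.07 (-0.21 to 0.07). The vehicle means of Gdpd3 in Q192, R192 and arrays labelled KO (6.43, 6.27 and 6.27) all lie under the filter level, so its small differences do not show that the 3 are alike. For Glcci1, Zfp109, Sae1 and Rps15a the fitted differences from R192 and arrays labelled KO lay between -0.14 and 0.09. Over all genes, 4 passed between Q192 and R192 (0.0268%) and 15 between Q192 and arrays labelled KO (0.1%). Without adjustment, 2531 and 1764 genes had a limma p under 0.05 in these comparisons, beside 348 between Q192 and WT. Of the vehicle arrays labelled KO, replicate 4 had Xist, the RNA that silences an X chromosome in females, at 11.26 and the Y-linked Eif2s3y at 4.15, whereas all 10 vehicle arrays of Q192 and WT had Xist between 5.31 and 5.88. Without that array and 2 WT arrays at 0.35 mg/kg/day that were also high in Xist (an alternative chosen after seeing the data) 8 genes passed against arrays labelled KO, and 7 of them were among the 15. Leaving out single arrays, the count against arrays labelled KO was 8 without the array labelled KO replicate 1, 7 without the array labelled KO replicate 4 and 9 without Q192 replicate 3.

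Outside chromosomes 6 and 7 there were 13 genes, and several of them differed in Q192 from both WT and arrays labelled KO. Mrpl20, a protein of the large subunit of the mitochondrial ribosome, read 8.12, 8.14, 8.17 and 8.20 in Q192 and 9.20 to 9.64 in WT, with a median of 9.33. The 4 Q192 arrays lay close together, all well under the lowest WT array. The difference from WT was -1.26 (SE 0.166, adjusted p = 3.15e-06) and that from arrays labelled KO -1.33 (adjusted p = 1.51e-05). From R192, whose vehicle arrays lay at 8.29 ± 0.12 (SD, n = 4), it was -0.15 (95% interval -0.51 to 0.22) and did not pass.

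Gabra2, the alpha-2 subunit of the GABA-A receptor, is known to be lowered in the substrain C57BL/6J by an intronic deletion. Its Q192 arrays read 8.19, 8.62, 8.86 and 8.52, and WT ran from 9.36 through a median of 9.60 to 9.85, without overlap. The difference from WT was -1.06 (SE 0.138, adjusted p = 2.52e-06) and that from arrays labelled KO -1.14 (adjusted p = 1.24e-05). R192 lay between, at 9.02 ± 0.21 (SD, n = 4), and the direct difference of -0.48 (95% interval -0.78 to -0.18) did not pass (adjusted p = 0.18). It did pass with only the groups compared in the fit (-0.47, adjusted p = 0.045) and with arrays weighted by quality (-0.45, adjusted p = 0.032).

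Mid1 and G530011O06Rik moved in opposite directions on the X chromosome. Mid1, a ubiquitin ligase bound to microtubules, spans the boundary of the pseudoautosomal region in laboratory mice, and in the gene table used here G530011O06Rik lies within its span. Which strand each probe set reads is not given, so signal from overlapping transcripts cannot be told apart. Mid1 read 8.10, 7.91, 7.99 and 8.09 in Q192 and 8.70 to 9.75 in WT, a difference of -1.02 (SE 0.204, adjusted p = 0.0079, and 0.053 without Q192 replicate 3). G530011O06Rik read 8.59, 8.82, 8.87 and 8.94 in Q192 and 6.46 to 7.48 in WT, a difference of +1.85 (SE 0.291, adjusted p = 0.00011). Neither gene overlapped between the genotypes. Against arrays labelled KO the differences were -1.18 (adjusted p = 0.0053) and +2.03 (adjusted p = 0.00021). Against R192 they were -0.25 (95% interval -0.70 to 0.19) and +0.68 (0.05 to 1.32), and neither passed. With only the Q192 and R192 vehicle arrays in the fit G530011O06Rik passed (+0.69, adjusted p = 0.019).

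Hspa4l, Snord53 and Rabl2 were higher in Q192 than in WT. Hspa4l, a chaperone of the Hsp110 family, read 10.90, 11.02, 11.13 and 11.04 against 10.34 to 10.54 in WT, a difference of +0.57 (SE 0.087, adjusted p = 4.51e-05). Snord53, a small nucleolar RNA, read 7.31, 7.21, 7.40 and 7.74 against 6.30 to 6.69, a difference of +0.98 (SE 0.164, adjusted p = 0.00036). Its WT mean, 6.439, lies at the filter level. Rabl2, a small GTPase with a role in cilia and sperm tails, read 8.20, 8.42, 8.23 and 8.35 against 7.28 to 7.68, a difference of +0.77 (SE 0.114, adjusted p = 2.92e-05). None of the 3 overlapped. Against arrays labelled KO, Hspa4l (+0.50, adjusted p = 0.0055) and Snord53 (+0.81, adjusted p = 0.035) passed and Rabl2 (+0.49, adjusted p = 0.13) did not. Without the array labelled KO replicate 4 and the 2 other arrays with high Xist, Hspa4l and Snord53 stood at +0.47 and +0.89 against arrays labelled KO, with an adjusted p of 0.059 for both. Against R192 their differences were -0.03, -0.06 and 0.00, with 95% intervals lying within -0.41 to 0.30.

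Wdfy1, Marchf1 and Cnbd2 passed as lower in Q192 against each of WT, R192 and arrays labelled KO, though the calls against arrays labelled KO did not hold without its array of high Xist. Wdfy1, an endosomal protein with a lipid-binding FYVE domain, read 8.16, 7.98, 8.005 and 8.58 in Q192, 8.82 to 9.13 in WT, 8.65 to 8.85 in R192 and 8.57 to 8.83 in arrays labelled KO. Only Q192 replicate 4 (8.58) reached the range of arrays labelled KO. The differences were -0.70 from WT (SE 0.097, adjusted p = 8.88e-06), -0.58 from R192 (adjusted p = 0.018) and -0.55 from arrays labelled KO (adjusted p = 0.0055). Marchf1, a membrane ubiquitin ligase that limits surface MHC class II, read 6.85, 7.22, 6.91 and 6.98 in Q192 and 7.44 to 8.21 in WT. It differed by -0.91 from WT (SE 0.172, adjusted p = 0.0039), by -0.98 from R192 (adjusted p = 0.018) and by -0.87 from arrays labelled KO (adjusted p = 0.030). Its Q192 arrays lay under all vehicle arrays of WT, R192 and arrays labelled KO, whose minima were 7.44, 7.77 and 7.71. Without the arrays with high Xist the differences from arrays labelled KO were -0.52 for Wdfy1 and -0.76 for Marchf1, and both had an adjusted p of 0.059.

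Cnbd2, a protein with cyclic nucleotide-binding domains, showed a smaller difference of the same kind. It read 6.81, 6.92, 6.71 and 6.82 in Q192 and 7.08 to 7.28 in WT, and fell by 0.34 (SE 0.072, adjusted p = 0.019). The adjusted p rose above 0.05 without any 1 of Q192 replicates 1, 3 and 4 or WT replicate 6, at most 0.26. The direct differences were -0.40 from R192 (adjusted p = 0.018) and -0.42 from arrays labelled KO (adjusted p = 0.0053), the latter -0.35 (adjusted p = 0.085) without the arrays with high Xist. The fourth gene that passed against R192 was Myo10, an unconventional myosin of filopodia, at +0.43 (adjusted p = 0.018). Its difference from WT was -0.01. The 4 calls against R192 depended on single arrays. Without Q192 replicate 1 or 3 or R192 replicate 1 the count in limma was 0, without Q192 replicate 4 or R192 replicate 2 it was 1, and without R192 replicate 3 or 4 it was 2. The number of calls also depended on the fit. It was 1099 when the groups compared were fitted alone and 1764 with arrays weighted by quality, with the 4 genes among them each time. It was 0 with the granule marker mean as a covariate and 0 with arrays of a shared number averaged. Of the 21 genes, 3 passed against R192 in the fit of all arrays, 6 with the groups alone and 5 with weights. Wdfy1, Marchf1 and Cnbd2 were among them each time, joined in both other fits by Gabra2 and Entpd4.

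The last 3 genes each lost their call when certain single arrays were left out. Entpd4, a nucleotidase of the Golgi and lysosomes, read 10.41, 10.25, 9.86 and 10.38 in Q192 and 9.51 to 9.78 in WT, a difference of +0.58 (SE 0.134, adjusted p = 0.047). It passed without Q192 replicate 3 and without WT replicate 4, and in the other 8 of 10 such fits the adjusted p rose to between 0.052 and 0.47. Its difference from arrays labelled KO was +0.80 (adjusted p = 0.0044) and that from R192 +0.42 (adjusted p = 0.18, and 0.043 with those groups alone). Nnt, the transhydrogenase of the inner mitochondrial membrane, which C57BL/6J lacks through a deletion in its gene, read 8.14, 8.66, 8.17 and 8.33 in Q192 and 8.82 to 9.37 in WT, a difference of -0.68 (SE 0.146, adjusted p = 0.022). It did not pass without any 1 of Q192 replicates 1, 3 and 4 or WT replicates 2, 3 and 4 (adjusted p at most 0.32). AI506816 read 7.58, 7.78, 6.63 and 7.40 in Q192 and 8.14 to 8.60 in WT, and fell by 1.01 (SE 0.213, adjusted p = 0.017). Q192 replicate 3 is the lowest of these arrays, and without it the difference was -0.77 (adjusted p = 0.49). Without WT replicate 1 the adjusted p was 0.058.

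**Figure D3:**
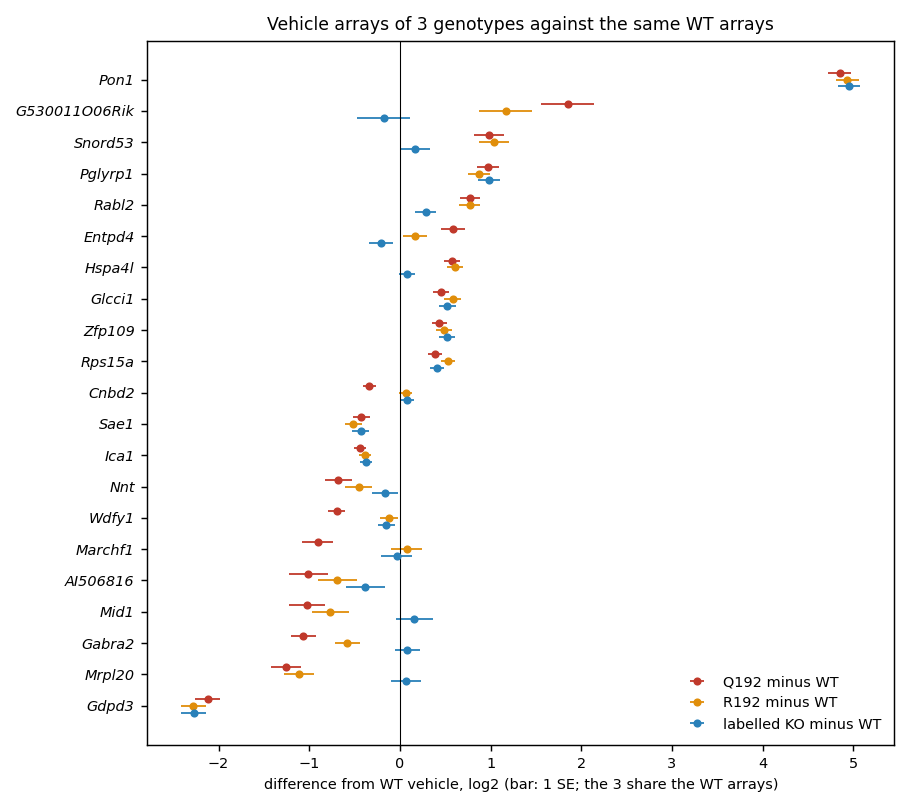
Log2 difference from the WT vehicle arrays (horizontal axis, bar 1 SE) of the 21 genes in the vehicle arrays of Q192, R192 and arrays labelled KO. The 3 differences of a gene share the 6 WT arrays. Gdpd3 lies between -2.12 and -2.28 in all 3 genotypes, Mrpl20 at -1.26 in Q192 and +0.07 in arrays labelled KO, and Wdfy1 at -0.70 in Q192 and -0.12 in R192.

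Side by side, the differences of the 3 genotypes from the same WT arrays are given for 9 of the genes. Gdpd3 stood at -2.12 in Q192, -2.28 in R192 and -2.27 in arrays labelled KO. Mrpl20 stood at -1.26, -1.11 and +0.07, and Gabra2 at -1.06, -0.58 and +0.08. G530011O06Rik stood at +1.85, +1.17 and -0.18, and Marchf1 at -0.91, +0.08 and -0.04. Mid1 stood at -1.02, -0.77 and +0.16, and AI506816 at -1.01, -0.69 and -0.38. Snord53 stood at +0.98, +1.04 and +0.17, and Pglyrp1 at +0.97, +0.87 and +0.99. These comparisons share the WT arrays, so the values are not independent of each other. Of all genes tested, 796 passed between R192 and WT (5.32%) and 22 between arrays labelled KO and WT (0.147%).

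The same genotype difference was then measured in pups given CPO, whose arrays are not among those above. At 0.35 mg/kg/day 32 genes passed between Q192 and WT (0.214%), and at 0.5 mg/kg/day 16 (0.107%). All 21 genes had the same sign at both doses as in vehicle. At 0.35 mg/kg/day 13 of the 21 passed again (61.9% of the 21 and 40.6% of the 32), and at 0.5 mg/kg/day 13 (61.9% of the 21 and 81.2% of the 16). A set of 11 genes passed in all 3 treatments: Pon1, Gdpd3, Mrpl20, Gabra2, Ica1, Hspa4l, Entpd4, Rabl2, Pglyrp1, Snord53 and G530011O06Rik. The count at 0.35 mg/kg/day moved with single WT arrays, to 86 without WT replicate 4 and 113 without WT replicate 5 of that dose. WT replicates 1 and 2 of that dose had Xist at 11.06 and 11.33. Without the arrays with high Xist 13 genes passed at 0.35 mg/kg/day, all among the 32, and Entpd4 (adjusted p = 0.11) and Snord53 (adjusted p = 0.051) were not among them.

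The sizes at the doses were close to those in vehicle for most of these genes. Gdpd3 differed by -2.19 at 0.35 mg/kg/day and -2.26 at 0.5 mg/kg/day, beside -2.12 in vehicle. Pglyrp1 differed by +1.02 and +0.97, Hspa4l by +0.46 and +0.62, and Rabl2 by +0.65 and +0.77. Mid1 differed by -1.90 at 0.35 mg/kg/day (adjusted p = 2.58e-09) and by -0.85 at 0.5 mg/kg/day, where it did not pass (adjusted p = 0.26). Without the arrays with high Xist, the limma difference of Mid1 at 0.35 mg/kg/day was -1.67 (adjusted p = 4.7e-07). Wdfy1 differed by -0.38 (adjusted p = 0.059) and -0.74 (adjusted p = 4.73e-05), and Zfp109 by +0.28 (adjusted p = 0.16) and +0.61 (adjusted p = 0.00023). Rps15a passed at 0.35 mg/kg/day (+0.36, adjusted p = 0.0094) and not at 0.5 mg/kg/day (+0.23).

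The 6 genes that passed at neither dose were AI506816, Marchf1, Nnt, Sae1, Cnbd2 and Glcci1. Marchf1 differed by -0.23 at 0.35 mg/kg/day, where the Q192 arrays ran from 7.05 to 7.60 and those of WT from 6.77 to 8.01, and by -0.55 at 0.5 mg/kg/day. The change of its Q192 difference from vehicle to 0.35 mg/kg/day was +0.67 (SE 0.237, adjusted p = 0.90). Cnbd2 differed by -0.16 and -0.17 at the doses, Nnt by -0.52 and -0.42, Sae1 by -0.33 and -0.26, and Glcci1 by +0.31 and +0.27. AI506816 differed by -0.53 and -0.91. In the test of whether the Q192 difference changed with the dose, limma called 0 genes at either dose, with 658 genes at an unadjusted p under 0.05 for 0.35 mg/kg/day and 345 for 0.5 mg/kg/day. With arrays weighted by quality, 3 genes were called at 0.5 mg/kg/day.

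**Figure D4:**
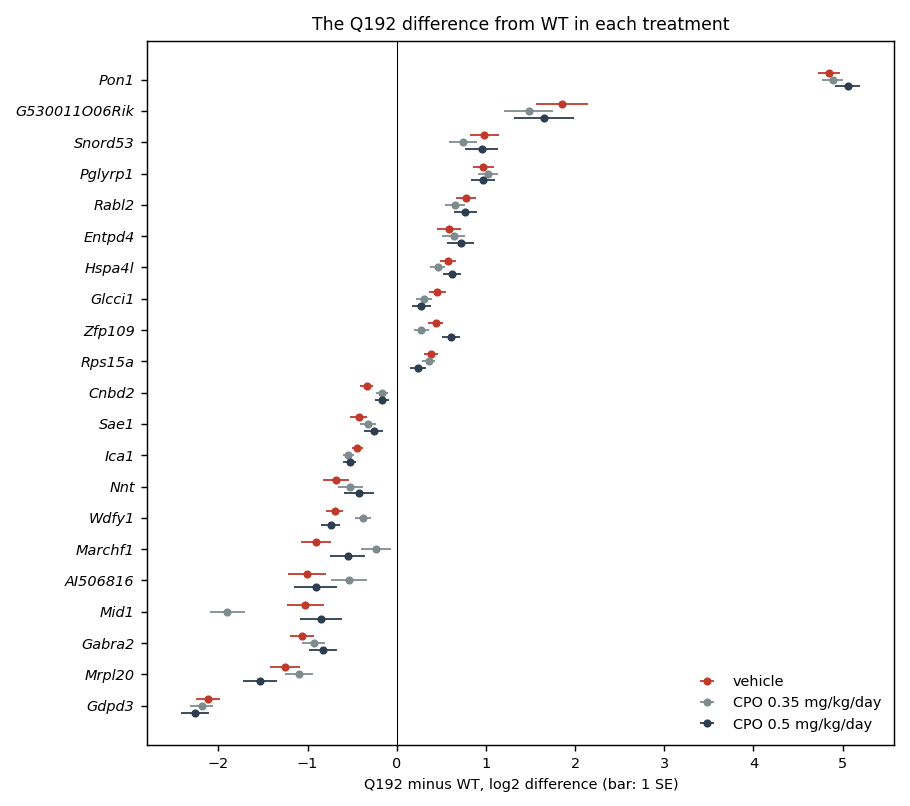
Log2 difference, Q192 minus WT (horizontal axis, bar 1 SE), of the 21 genes in vehicle, at 0.35 and at 0.5 mg/kg/day CPO, each from its own arrays. All 21 genes keep 1 sign in the 3 treatments, and Mid1 varies most in size among the genes over 1, from -0.85 to -1.90. Its difference at 0.35 mg/kg/day was -1.67 without the arrays with high Xist, which is not drawn.

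Pooled over the 3 treatments, 11 of the 21 genes had no overlap between the 14 Q192 and 15 WT arrays, against 12 of all 14950 genes (0.0803%). The 21 were chosen on the vehicle arrays among these. Pon1 ran from 9.78 to 10.27 in Q192, with a median of 10.12, and from 4.79 to 5.55 in WT. Gdpd3 ran from 5.84 to 6.56 with a median of 6.32, and from 8.04 to 9.18 in WT with a median of 8.50. Rabl2 came nearest to overlapping among the 11, with 7.709 as its lowest Q192 array and 7.707 as its highest WT array. Wdfy1 did overlap by a narrow margin, its highest Q192 array at 8.582 and its lowest WT array at 8.576. G530011O06Rik overlapped too, with Q192 from 7.67 to 9.54 and WT from 6.46 to 7.76.

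In 31 lists of cell type markers and pathways, with 689 tested genes in all, 7 genes passed (1.02%), beside 0.14% of all genes. These were Pon1, Gabra2, Mid1, Wdfy1, Nnt, Entpd4 and Rps15a. Without Pon1 and the genes of the C57BL/6 substrain list, 2 of 681 passed (0.294%), Gabra2 and Rps15a. Gabra2 was not on the substrain list, although it is also known to differ in C57BL/6J. Of 7 tested genes known from differences between C57BL/6 substrains, Wdfy1, Mid1 and Nnt passed lower and Entpd4 passed higher, a list drawn up with earlier results of these data known. Of 18 tested genes of GABA synthesis and its receptors only Gabra2 passed, and the list's median difference was -0.02. Gabra6, the granule neuron subunit, differed by +0.26 (adjusted p = 1.00). Of 55 cytosolic ribosomal proteins Rps15a was the 1 that passed, while 52 had a difference above 0, with a median of +0.05. The list mean ran from 10.76 to 10.81 in Q192, within the WT range of 10.55 to 10.98. At 0.35 and 0.5 mg/kg/day 4 and 28 of the 55 lay under 0, with medians of +0.16 and -0.003. The WT arrays at 0.35 mg/kg/day include the 2 with high Xist. In the lists of glutathione and oxidative stress (47 tested), only Nnt passed. In those of respiratory chain subunits (71), synaptic vesicle cycle (38), serine hydrolases (32), glutamate receptors (23), acetylcholine receptors (16) and cholesterol synthesis (20) limma called 0 genes, with 0 at an unadjusted p under 0.05 and medians between -0.05 and +0.01.

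Markers of the linings of the brain and of choroid plexus had lower values in Q192 in the vehicle arrays, although limma called 0 of these genes, and the direction did not hold in the arrays given CPO. Of 14 tested choroid plexus and ependyma genes 13 had a difference under 0 and 4 an unadjusted p under 0.05. Over all genes 2.33% had such a p, and the median difference was -0.01. The median of the choroid plexus list was -0.22, and the mean of the list ran from 7.68 to 7.85 in Q192 and from 7.90 to 8.24 in WT. Among its members Tmem72 differed by -0.43 (adjusted p = 0.20) and Kl, which encodes klotho, a co-receptor for fibroblast growth factors, by -0.53 (adjusted p = 1.00). Of 16 meningeal and fibroblast genes 14 lay under 0 and 4 had an unadjusted p under 0.05, with a median of -0.26, and the list mean ran from 7.995 to 8.17 in Q192 and from 8.13 to 8.55 in WT. Of 27 chaperones of the endoplasmic reticulum and genes of the unfolded protein response 23 lay under 0 and 5 had an unadjusted p under 0.05, with a median of -0.16, and 0 were called. At 0.35 and 0.5 mg/kg/day the choroid plexus list had 6 and 6 of its 14 genes under 0, with medians of +0.04 and +0.08, and Kl differed by +0.04 and +0.41. The meningeal list had 10 and 7 of 16 under 0, with medians of -0.03 and +0.05. The chaperone list had 22 of 27 under 0 at 0.35 mg/kg/day (median -0.17), with 2 genes called, beside 0.214% of all genes. At 0.5 mg/kg/day it had 5 of 27 under 0 (median +0.15), and Pdia4, a protein disulfide isomerase, stood at +0.55 beside -0.34 in vehicle. The genes of a list vary together across arrays, so these counts are not counts of independent genes. The WT arrays at 0.35 mg/kg/day include 2 with high Xist, and the lists were not recomputed without them. In bulk tissue, fewer cells of a type and less RNA per cell cannot be told apart.

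The defining markers of cerebellum were high in both genotypes, and the list means had a smaller SD in Q192 than in WT in 25 of the 31 lists. Among the 6 others, GABAergic interneuron markers ran from 8.76 to 8.98 in Q192 and from 8.82 to 8.96 in WT. The mean of 21 granule neuron markers ran from 10.66 to 10.98 in Q192 and from 9.42 to 11.32 in WT, with WT replicate 4 lowest and WT replicate 1 highest. In the Q192 vehicle arrays, 19 of the 21 lay above WT, with a median of +0.16, and limma called 0 of them (1 at an unadjusted p under 0.05). The direction did not hold at 0.35 mg/kg/day, where 20 of the 21 differences lay under 0, with a median of -0.25. At 0.5 mg/kg/day 7 of the 21 lay under 0, with a median of +0.02. The WT arrays at 0.35 mg/kg/day include 2 with high Xist, and the list was not recomputed without them. Of its markers, Calb2 differed at that dose by -0.08 with the arrays of high Xist and by +0.07 without them. Zic2 differed by -0.40 with them and by -0.28 without them. Myelin markers (22) ran from 10.95 to 11.12 in Q192 and 10.58 to 11.54 in WT, microglial markers (20) from 8.08 to 8.13 and 7.83 to 8.60, and brainstem and midbrain markers (29) from 8.09 to 8.42 and 7.61 to 8.65. WT replicate 4 was the highest and replicate 1 the lowest WT array in these 3 lists. Forebrain markers (11) ran from 7.59 to 7.86 and 7.46 to 7.92. With the granule or the brainstem marker mean as a covariate all 21 genes passed, and the difference of Mrpl20 remained at -1.26 in both. Without WT replicate 4 it was -1.22, that of Gdpd3 -2.13 and that of Gabra2 -1.05.

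**Figure D5:**
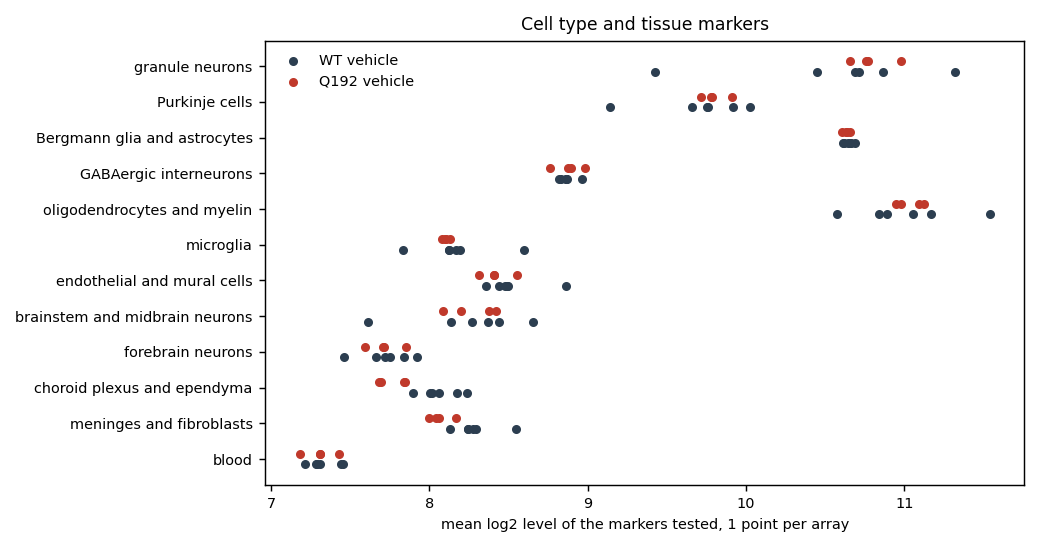
Mean log2 level of cell type and tissue markers (horizontal axis) in each of the 4 Q192 and 6 WT vehicle arrays, 1 row per list. The WT arrays spread most widely for granule neurons (9.42 to 11.32, beside 10.66 to 10.98 in Q192), for GABAergic interneurons the Q192 arrays spread more (8.76 to 8.98, beside 8.82 to 8.96), and the choroid plexus and ependyma means of the genotypes do not overlap.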

How the data were processed

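Cerebellar RNA was hybridised to Affymetrix Mouse Gene 1.0 ST arrays, of which 10 make up the comparison and 55 the fit. The deposited values were made by the authors with Affymetrix Expression Console 1.1 and RMA, per the submitters' processing notes, and were taken as log2 levels because they run from 1.15 to 14.80 and no base is named. Array medians lay between 7.37 and 7.54. An array has no read depth, and the number of arrays limits the precision. Levels of different genes come from different probes and were not compared with each other.

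The probe annotation paired 21789 of 35557 probe sets with a single gene symbol, and only these were kept (1621 had more than 1 and 12147 no symbol). The GRCm38.p6 gene table held the identifiers of 21698, changed 0 symbols and gave chromosomes and gene order. No build is named for the files, so no positions of probe sets are given. Where probe sets of 1 gene competed (999 genes), the brightest on average was used. Genes with a mean above the 25th percentile (6.44) were kept, and 3 sex-linked genes were left out.

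limma 3.58.1 in R 4.3.3 fitted 12 group means with the array date as covariate and arrays that share a number in the labels as correlated (correlation 0.131, 36 numbers), with a trend of variance with level and 42 residual degrees of freedom. Tests were two-sided, with Benjamini-Hochberg adjustment over the 14950 genes of each comparison. The fit was tested on simulated data. Among 104 pairs of arrays within groups none held identical values, and the smallest root mean square difference was 0.161. Figures were drawn with matplotlib 3.10.9 in Python 3.11.15. For Q192 and WT vehicle arrays with the same replicate number in the titles, residuals from group means and date correlated at 0.24, 0.04, 0.43 and -0.12. Arrays of different numbers were not compared, so whether a replicate number marks a shared block cannot be told.

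Genes were named by rule. It took all that passed in vehicle up to 20 in each direction, those among 30 tested genes on either side of Pon1, the Pon genes, Ache, Bche, Nnt and Mid1, up to 8 members of each list that passed or otherwise the 2 with the smallest p, the 6 with the smallest p against R192 and KO, and up to 6 genes of the 3 chromosomes with the largest share of calls. Mios was named because its groups did not overlap, which was chosen after its values were seen. The comparison, the lists and the genes were chosen with earlier results of these data known. The alternatives left out the date, the number correlation, the level filter or single arrays, used only the groups compared, or weighted, centred or averaged arrays, among others. Leaving out arrays with high Xist was added after seeing the data.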

Additional observations from a re-analysis of the deposited data

Results flagged for a closer look

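The values of the 21 genes, of Pon2, Pon3, Ache and Bche and of the 31 list means were searched for single arrays that stand apart within the 4 Q192 or the 6 WT vehicle arrays. Of 112 such groups 10 held one, all in WT, and chance alone marks about 1 in 20. Among the genes, WT replicate 5 was high for Gdpd3 (8.91, the others 8.35 to 8.55) and for Mid1 (9.75, the others 8.70 to 9.06). WT replicate 4 was high for Wdfy1 (9.13, the others 8.82 to 8.86) and for Nnt (9.37, the others 8.82 to 8.98). For these 4 genes the Q192 arrays also lay under all the other WT arrays. Gdpd3 and Mid1 passed without WT replicate 5 and Wdfy1 passed without WT replicate 4, whereas Nnt did not pass without WT replicate 4.

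Among the list means, WT replicate 4 stood high for cholesterol biosynthesis (10.61, the others 9.94 to 10.17), for glutathione and oxidative stress (9.53, the others 9.21 to 9.30) and for endothelial and mural cells (8.87, the others 8.36 to 8.49), and low for glutamate receptors (9.11, the others 9.29 to 9.33). WT replicate 5 was high for GABAergic interneurons (8.96, the others 8.82 to 8.87). WT replicate 1 was low for acetylcholine receptors (7.87, the others 8.08 to 8.21).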

How the results depend on the processing

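No call among the 21 genes changed sign under any alternative. Pon1 and Gdpd3 passed under every setting in which they were tested. Of the 60 other named genes, 22 changed sign somewhere, none of them while passing. The 21 calls in vehicle became 42 with arrays weighted by quality (the 21 among them), 14 fitted on the 10 arrays alone and 15 with arrays of a shared number averaged (all among the 21), 4 on the first date alone and 7 on the second, and 16 to 21 without single arrays. The replicate number of the titles as a block gave 20, with 18 of the 21 among them, and Cnbd2 (adjusted p = 0.082), Entpd4 (0.062) and Sae1 (0.062) were lost. The count against R192 (4) was 1099 with the groups compared fitted alone, 1764 with weights, 2 above the 50th percentile, 0 with the granule covariate, with shared numbers averaged or on either date, and 0 to 3 without single arrays. Against arrays labelled KO (15) it was 7 fitted alone and 7 above the 50th percentile, 33 with weights, 1 and 4 on the dates, 8 without arrays of high Xist, and 7 to 18 without single arrays. At 0.35 mg/kg/day (32) it was 51 without the number correlation, 12 fitted alone, 223 with weights, 17 averaged, 3 and 13 on the dates, 13 without arrays of high Xist, and 22 to 113 without single arrays. At 0.5 mg/kg/day (16) it was 43 with weights, 27 with the granule covariate, 8 averaged, 2 and 7 on the dates, and 11 to 18 without single arrays. The change of the difference at 0.5 mg/kg/day had 3 calls with weights. Calls on chromosomes 6 and 7 (8) numbered 4 fitted alone, 19 with weights, 5 averaged, 2 and 3 on the dates, and 5 to 9 without single arrays. Calls in the lists (7) numbered 4 fitted alone, 3 and 1 on the dates, and 4 to 6 without single arrays. The cause of these changes was not tested, except that single dates and averaging hold fewer arrays. The date-alone fits have 2 Q192 and 3 WT vehicle arrays.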

Other observations

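Some genes passed between Q192 and WT in a CPO dose and not in vehicle. They are named here after their values were seen. Ppp1r14a, an inhibitor of myosin phosphatase, differed by +0.91 at 0.35 mg/kg/day (adjusted p = 0.0015), by +0.35 at 0.5 mg/kg/day (adjusted p = 1.00) and by +0.60 in vehicle (adjusted p = 0.43). Tmc7, a transmembrane channel-like protein, differed by +0.67, +0.33 and +0.29 in the same order, with a pass at 0.35 mg/kg/day alone (adjusted p = 1.16e-05). Mios, 14 places from Pon1, passed at 0.5 mg/kg/day (-0.48, adjusted p = 0.021) beside -0.30 in vehicle. Between Q192 and the arrays labelled KO in vehicle, Plekhd1 passed at +1.23 (adjusted p = 1.5e-05), although its difference from WT was +0.05.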
